A study of Rattus norvegicus with 7 samples.

Results

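Ccl12 (ENSRNOG00000029768), Cxcl13 (ENSRNOG00000024899), Cxcl10 (ENSRNOG00000022256) and Icam1 (ENSRNOG00000020679) encode 3 secreted chemokines and an adhesion molecule of the cell surface, which act at successive steps of leukocyte entry into tissue. The 4 genes were taken from a table of 23918 genes by their Ensembl identifiers, and all 4 passed the filter on low counts. Their levels were compared between control and LPS-exposed fetal rat lungs.

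Pregnant Sprague-Dawley rats received an ultrasound-guided injection into the amniotic cavity (IA) on gestational day 18, and fetal lungs were sampled 24 h later for bulk RNA-sequencing, to ask how inflammation of the amniotic cavity alters the fetal lung. The control group held 3 lungs exposed to PBS. The IA LPS group held 4 lungs exposed to 10 µg of LPS from E. coli O55:B5, the endotoxin shed from the envelope of Gram-negative bacteria. The sample labels give the dose as an incomplete number, so the dose of the series description was used, and they give the stage as the day of injection. The PBS injection is itself an intervention, and full sterility was not kept during it. The labels name neither the dam nor the sex of any fetus, so the p-values measure the spread between these samples, which may include litter mates.

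Total estimated counts were 25031827, 26844367 and 27724439 in controls 1, 2 and 3. They were 28164960, 28336525, 27332721 and 27401107 in IA LPS 1, 2, 3 and 4. At these depths 3 counts, taken as the detection floor, equalled 0.105 to 0.124 CPM, where CPM are counts scaled by library total and TMM factor. Floors and 95% intervals of single libraries (exact Clopper-Pearson) cover counting error only.

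A pair of IA LPS libraries stood apart from the rest. On the first principal component, which carried 38.8% of the variance, IA LPS 4 scored 71.8, whereas IA LPS 1, 2 and 3 scored -0.192, 10.9 and -3.28 and controls 1, 2 and 3 scored -31.9, -22.6 and -24.6. The median correlation of IA LPS 4 with its own group was 0.961, against 0.978 to 0.981 in the other libraries. The study compared the controls with IA LPS 1, 2 and 3, so log2 fold changes are given over all 7 libraries and, for the genes that the results turn on, over the 6 without IA LPS 4. IA LPS 2 differed in 2 of the 3 thymus markers with an identifier. Rag1, which is needed to rearrange antigen receptor genes in developing lymphocytes, was at 27.8 CPM in IA LPS 2 and at 0.407 to 1.02 CPM in the other 6 libraries. Ptcra, the pre-T cell receptor alpha chain, was at 2.80 CPM in IA LPS 2 and at no more than 0.0713 CPM elsewhere. Dntt, the terminal transferase of developing lymphocytes, did not stand out there, at 0.618 CPM against 0.334 to 0.659 CPM in the other libraries. Lung identity was clear in every library, with Nkx2-1, a transcription factor of lung epithelium, at 310 to 389 CPM and the surfactant gene Sftpc at 478 to 1222 CPM.

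Chemokines are small secreted proteins that guide leukocytes along gradients by binding receptors on their surface, and several are made by epithelium, endothelium and macrophages after LPS is sensed. Adhesion molecules on endothelium then hold the arriving cells through leukocyte integrins. In the lung these steps govern how monocytes, neutrophils and lymphocytes enter the airspaces and the tissue around them.

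All 4 genes were higher in IA LPS lungs on average, and Icam1 was the only 1 of the 4 that passed the thresholds over all 7 libraries. A call of induced or suppressed required a change of 1.5-fold or more, an unadjusted p below 0.05 and an adjusted p below 0.1 (edgeR quasi-likelihood test, Benjamini-Hochberg adjustment). Over 7 libraries 1.40% of the 15750 genes tested were called induced, and over 6 libraries 2.17% of 15627. Without IA LPS 4, 3 of the 4 genes were called, namely Icam1, Ccl12 and Cxcl13. Cxcl10 was called in neither comparison. Every IA LPS library lay above every control for 3 of the 4 genes over 7 libraries, a pattern seen in 10.6% of all genes tested, and for 4 of 4 over 6 libraries, against 14.8%. All 4 had an unadjusted p under 0.05 with a higher level in IA LPS lungs, as did 9.11% of genes tested over 7 libraries. The lungs were sequenced whole, so more cells of a type and more RNA per cell cannot be told apart.

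Gene names were available for a selected set only. All 4 genes carry a name through a list of genes higher in the placenta after the same treatment. Of the 724 tested genes on that list, 5.11% were called induced in the lung over 7 libraries, and 8.63% of 695 over 6 libraries.

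Ccl12 is a ligand of Ccr2, the receptor that draws monocytes out of blood. Its level was 0.371, 0.665 and 1.26 CPM in controls 1, 2 and 3, and 2.55, 1.78, 2.43 and 2.19 CPM in IA LPS 1, 2, 3 and 4. The groups did not overlap, and the lowest IA LPS library was 1.41 times the highest control. These levels rest on 9, 18 and 36 counts in controls and 49 to 73 counts in IA LPS lungs. The spread was wider among controls, with a coefficient of variation of 59.4% against 15.1%, and exceeded counting error, since the interval of control 1 (0.169 to 0.703 CPM) lay below that of control 3 (0.886 to 1.75 CPM). Mean levels were 0.767 ± 0.456 CPM in controls (SD, n = 3) and 2.24 ± 0.338 CPM (SD, n = 4) after IA LPS.

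The log2 fold change of Ccl12 was 1.53 (SE 0.392, 95% interval 0.63 to 2.42), a 2.88-fold difference that missed the threshold over 7 libraries (edgeR adjusted p = 0.125) although all 4 IA LPS lungs were higher. Over 6 libraries it was also 1.53 (SE 0.418), and Ccl12 was called (edgeR adjusted p = 0.0765). The exact permutation test over the 7 libraries gave a two-sided p of 0.0571, the smallest that 35 regroupings can give. The size depended on the controls, at 1.21 without control 1, 1.43 without control 2 and 2.09 without control 3.

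The nearby chemokine genes Ccl2 and Ccl7 were measured as well. In the GRCr8 gene table Ccl12 follows Ccl2, Ccl7 and Ccl11 on chromosome 10 and precedes Ccl1. The adjacent genes Ccl11 and Ccl1 were not analysed here. Ccl2, another monocyte attractant acting through Ccr2, was at 14.0, 19.1 and 21.3 CPM in controls and at 14.9, 16.2, 16.4 and 14.4 CPM in IA LPS lungs. Its groups overlapped, with a log2 fold change of -0.23 over 7 libraries (95% interval -0.58 to 0.12, edgeR adjusted p = 0.507) and -0.19 over 6. Ccl7 was at 0.281 to 0.494 CPM in controls and 0.428 to 0.524 CPM in IA LPS lungs, also overlapping, with a log2 fold change of 0.37 over 7 libraries (edgeR adjusted p = 0.638) and 0.33 over 6. Whether Ccl12 differed from these neighbours in its response was not tested. The values of all 4 genes in each library were whole numbers in the deposited table, and rounding changed none of them.

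Cxcl13 is the ligand of Cxcr5 and guides B cells into lymphoid follicles. Its level was 3.83, 6.80 and 6.32 CPM in controls 1, 2 and 3, and 12.1, 8.87, 9.95 and 5.79 CPM in IA LPS 1, 2, 3 and 4. IA LPS 1, 2 and 3 exceeded every control, while IA LPS 4 lay among the controls. The counting interval of IA LPS 4 (4.92 to 6.77 CPM) overlapped that of control 2 (5.85 to 7.86 CPM). Means were 5.65 ± 1.60 CPM in controls (SD, n = 3), 9.17 ± 2.62 CPM in 4 IA LPS lungs and 10.3 ± 1.63 CPM in the 3 without IA LPS 4.

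The log2 fold change of Cxcl13 was 0.70 over 7 libraries (SE 0.286, 95% interval 0.04 to 1.35), and it was not called (edgeR adjusted p = 0.294). Without IA LPS 4 it was 0.86 (SE 0.223), 1.82-fold, and Cxcl13 was called (edgeR adjusted p = 0.0659), higher in 3 of 3 IA LPS lungs. The exact two-sided permutation p over 7 libraries was 0.171. The size also depended on other libraries, at 0.48 without control 1 and 0.54 without IA LPS 1 (edgeR adjusted p = 0.647 and 0.419). It was 0.85 without control 2 and 0.79 without control 3, and Cxcl13 was called in none of these. Leaving out IA LPS 4 moved the fold change of Cxcl13 more than those of the other 3 genes, and the 8 monocyte and macrophage markers with an identifier were split in that library. Cx3cr1, the fractalkine receptor of monocytes and macrophages, was at 2.71 CPM there and 6.32 to 7.49 CPM in IA LPS 1, 2 and 3. Lyz2, the lysozyme gene of myeloid cells, was at 148 CPM there and 234 to 292 CPM in the other IA LPS lungs. In contrast C1qa, C1qb, C1qc and Aif1, markers of the same list, were higher in IA LPS 4 than in IA LPS 1, 2 and 3, with C1qa at 40.0 CPM against 23.0 to 31.5 CPM. The part of these cells in the low Cxcl13 value was not tested.

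Cxcl10 is an interferon-inducible ligand of Cxcr3, a receptor of activated T cells and NK cells. Its level was 1.07, 0.887 and 0.843 CPM in controls 1, 2 and 3, and 1.15, 2.62, 1.32 and 1.89 CPM in IA LPS 1, 2, 3 and 4. The groups did not overlap, but they came close, as IA LPS 1 was 1.08 times control 1 and their counting intervals overlapped (0.793 to 1.62 CPM and 0.699 to 1.57 CPM). Here the spread was wider in IA LPS lungs, with a coefficient of variation of 37.9% against 12.9% in controls. Counts were 24 to 26 in controls and 33 to 72 in IA LPS lungs.

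The log2 fold change of Cxcl10 was 0.90 (SE 0.342, 95% interval 0.12 to 1.68, edgeR adjusted p = 0.264) over 7 libraries and 0.86 (SE 0.374, 95% interval 0.01 to 1.71, edgeR adjusted p = 0.222) over 6. The exact two-sided permutation p over 7 libraries was 0.0571, again the smallest possible. IA LPS 2 held the highest level, and without it the log2 fold change was 0.64 (edgeR adjusted p = 0.449). That library also held the thymus transcripts. The 3 thymus markers with an identifier, of 6 listed, summed to 31.2 CPM in IA LPS 2 and to between 0.924 and 1.52 CPM in the other libraries, with Rag1 making up most of the sum in IA LPS 2 and no marker at 0 in every library. Cd2, a T cell surface gene, was at 3.05 CPM in IA LPS 2 and at most 0.223 CPM elsewhere.

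Globin transcripts were high in the same pair of libraries in which Cxcl10 was highest. The 6 erythroid markers with an identifier, of 9 listed, summed to 28867 CPM in IA LPS 2 and 31306 CPM in IA LPS 4, against 13289 and 19778 CPM in IA LPS 1 and 3 and 17010, 14013 and 17202 CPM in controls. Hba-a1, an alpha globin, made up most of each sum, and none of the 6 was called in either comparison. Other markers of the list were not all high in IA LPS 4, where Slc4a1, the red cell anion exchanger, was at 135 CPM against 157 CPM in control 3, and Klf1, an erythroid transcription factor, at 13.3 CPM against 20.0 CPM. The part of thymus or red cell content in the Cxcl10 levels was not tested.

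Cxcl10 lies between Cxcl11 and Cxcl9 on chromosome 14 of GRCr8, both of which encode ligands of Cxcr3. Cxcl11 had no more than 3 counts in any library. Cxcl9 was at 0.659, 0.111 and 0.422 CPM in controls and 0.349, 0.763, 0.713 and 0.297 CPM in IA LPS lungs, with overlapping groups and a log2 fold change of 0.43 over 7 libraries (edgeR adjusted p = 0.757) and 0.62 over 6 (edgeR adjusted p = 0.592). The receptor gene Cxcr3 was at 0.576, 0.554 and 0.316 CPM in controls and 0.244, 0.436, 0.214 and 0.260 CPM in IA LPS lungs, a log2 fold change of -0.73 over 7 libraries (95% interval -1.69 to 0.23, edgeR adjusted p = 0.435) and -0.68 over 6. At 6 to 15 counts per library a difference in Cxcr3 of this size could not be resolved.

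Icam1 encodes the endothelial and epithelial ligand of the leukocyte integrins built from Itgal or Itgam with Itgb2. Its level was 16.9, 16.0 and 18.0 CPM in controls 1, 2 and 3, and 29.7, 29.4, 24.8 and 30.8 CPM in IA LPS 1, 2, 3 and 4. The groups were well apart, with the lowest IA LPS library 1.38 times the highest control and narrow spread in both groups (coefficients of variation 5.87% and 9.21%). Means were 16.9 ± 0.995 CPM in controls (SD, n = 3) and 28.7 ± 2.64 CPM (SD, n = 4) after IA LPS.

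Icam1 rose by 0.76 on the log2 scale (SE 0.111, 95% interval 0.50 to 1.01), 1.69-fold, and was called (edgeR adjusted p = 0.0389), ranking 40 of 15750 genes by p. Without IA LPS 4 the log2 fold change was 0.72 (SE 0.101, edgeR adjusted p = 0.0125). The exact two-sided permutation p over 7 libraries was 0.0571. Its size was stable at 0.72 to 0.82 when each library was left out, but the call was lost without control 1, control 2, control 3 or IA LPS 2 (edgeR adjusted p of 0.204, 0.165, 0.114 and 0.123), when at most 2 genes in all were called induced.

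**Figure D1:**
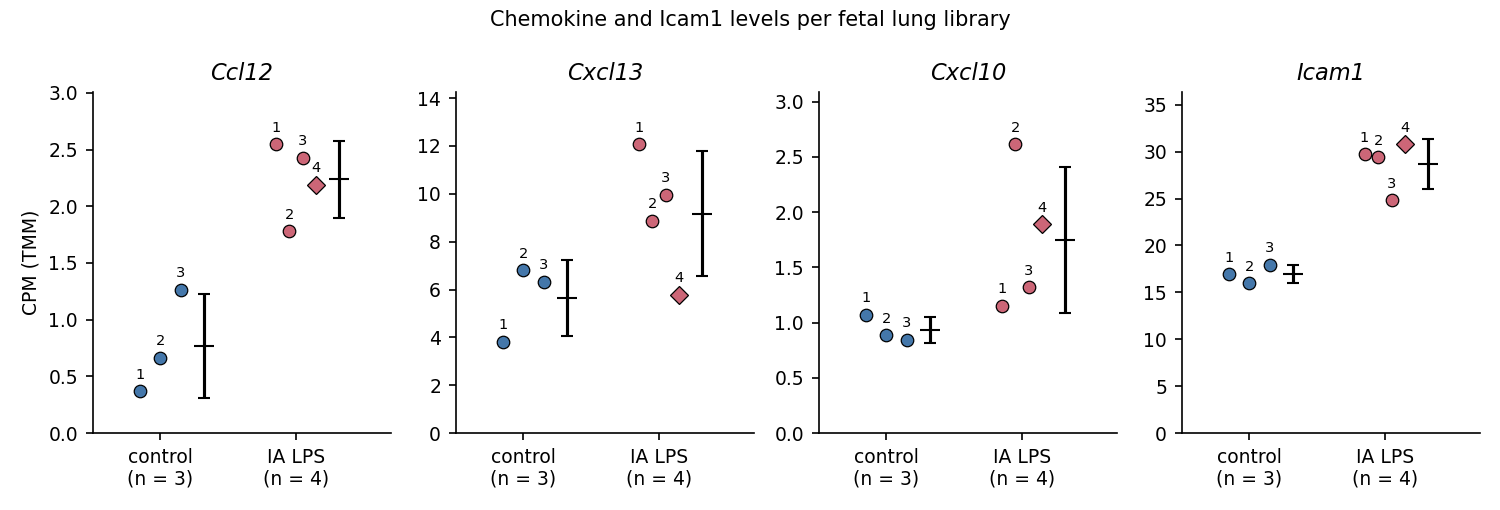
CPM of each gene in each library, by group, with the library number over each point, IA LPS 4 as a diamond and the mean ± SD at the side (n = 3 controls, n = 4 IA LPS lungs). Icam1 sits at 16.0 to 18.0 CPM in controls and 24.8 to 30.8 CPM in IA LPS lungs, while Cxcl13 in IA LPS 4 lies among the controls.

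**Figure D2:**
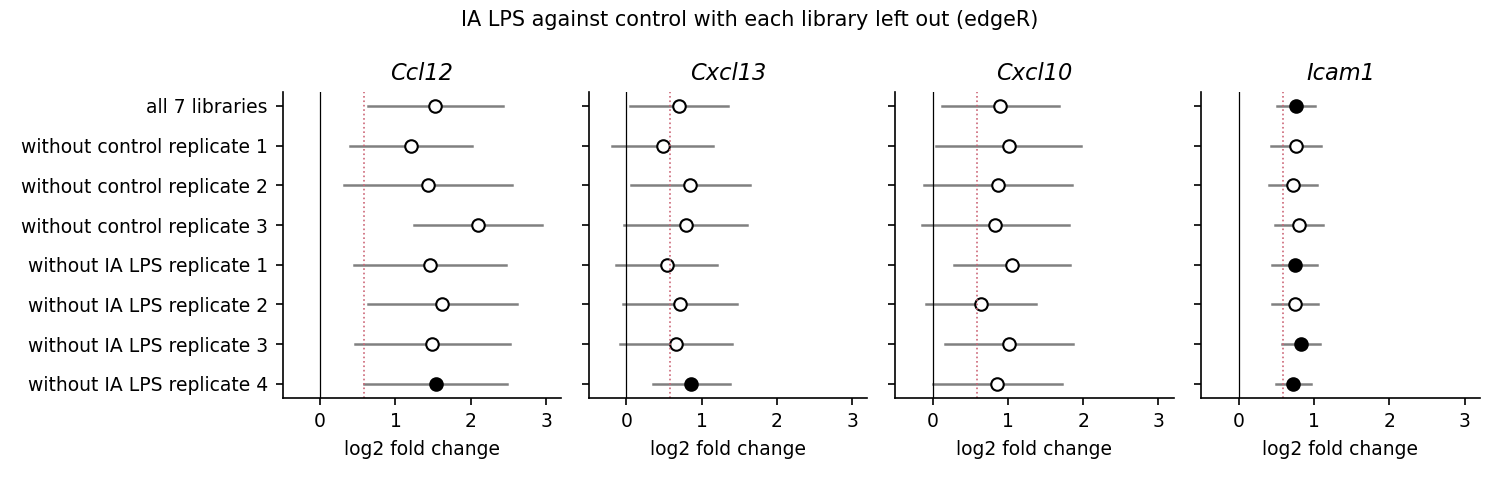
Log2 fold change of IA LPS against control (x axis) with its 95% interval (lines) over all 7 libraries and with each library left out (y axis), from edgeR. Filled points were called, open points were not, the solid line marks 0 and the dotted line the fold change threshold of 1.5.

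Genes of these pathways, with the 4 members among them, were examined through lists. Of 153 listed genes 42 had an identifier and 32 were tested over 7 libraries, of which Icam1 and Oasl2 were called, both induced. Over 6 libraries Icam1, Oasl2, Ccl12, Cxcl13 and Cx3cr1 were called induced and Madcam1 was called suppressed. Apart from the members, the called genes were thus Oasl2 alone over 7 libraries, and Oasl2, Cx3cr1 and Madcam1 over 6. The median log2 fold change of all genes tested was 0.0097 over 7 libraries and 0.0029 over 6. That of the tested genes named from the list of genes higher in placenta was 0.21 and 0.19, and most list members belong to these.

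Among ligands, 8 of 20 CC and CX3C chemokines were tested over 7 libraries, none was called, 2 (Ccl12 and Ccl5) had an unadjusted p under 0.05, and the median log2 fold change was 0.20. Over 6 libraries Ccl5 and Ccl20 did not pass the filter, the median of the remaining 6 was -0.10, and Ccl12 alone was called. Ccl5, an attractant of T cells and monocytes, was at 0.288, 0 and 0.0703 CPM in controls and 0.314 to 0.642 CPM in IA LPS lungs, which rests on 0 to 7 and 9 to 18 counts, and its edgeR adjusted p was 0.291. Of 15 CXC chemokines the 3 tested were Cxcl9, Cxcl10 and Cxcl13, with a median of 0.70 over 7 libraries and 0.86 over 6. These medians are the values of Cxcl13 and of Cxcl10, so they repeat the members. Cxcl9 alone was not a member. The neutrophil attractant Cxcl2 had 1 count in all libraries together, in IA LPS 1.

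Of 23 chemokine receptors 3 were tested, with a median log2 fold change of 0.48 over 7 libraries and 0.61 over 6. None was called over 7 libraries. Cx3cr1 was at 3.66, 5.21 and 4.01 CPM in controls and 6.32, 7.49, 7.46 and 2.71 CPM in IA LPS lungs. Its log2 fold change was 0.48 over 7 libraries (edgeR adjusted p = 0.521) and 0.72 over 6, where it was called (edgeR adjusted p = 0.0564). The receptors Ccr2 and Cxcr5 had no paired identifier and were not analysed here.

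Over 6 libraries 1 of the 3 tested endothelial adhesion genes was called induced and 1 suppressed, and 1.13% of all genes tested were called suppressed. Of 14 endothelial adhesion genes Icam1, Madcam1 and Cd34 were tested, with a median log2 fold change of 0.18 over 7 libraries and 0.17 over 6. Both medians are the values of Cd34, which was not called (edgeR adjusted p = 0.404 and 0.286). Cd34 was at 129, 115 and 104 CPM in controls and 131, 125, 135 and 133 CPM in IA LPS lungs, with overlapping groups. Madcam1, a ligand for the integrin of gut-homing lymphocytes, was at 5.80, 4.51 and 6.57 CPM in controls and 3.39, 3.49, 3.28 and 5.64 CPM in IA LPS lungs. Its log2 fold change was -0.51 over 7 libraries (edgeR adjusted p = 0.352) and -0.73 without IA LPS 4, where it was called suppressed (edgeR adjusted p = 0.0584). Of 11 integrin and selectin genes 3 were tested and none was called in either comparison, with medians of 0.57 and 0.77. Itgal, a partner of Icam1, was at 16.1, 13.9 and 13.7 CPM in controls and 15.4, 23.7, 15.7 and 11.6 CPM in IA LPS lungs, with overlapping groups. Its log2 fold change was 0.19 over 7 libraries (edgeR adjusted p = 0.708) and 0.33 without IA LPS 4, the lowest library (edgeR adjusted p = 0.316). Itgam and Itgb2 were not analysed here.

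**Figure D3:**
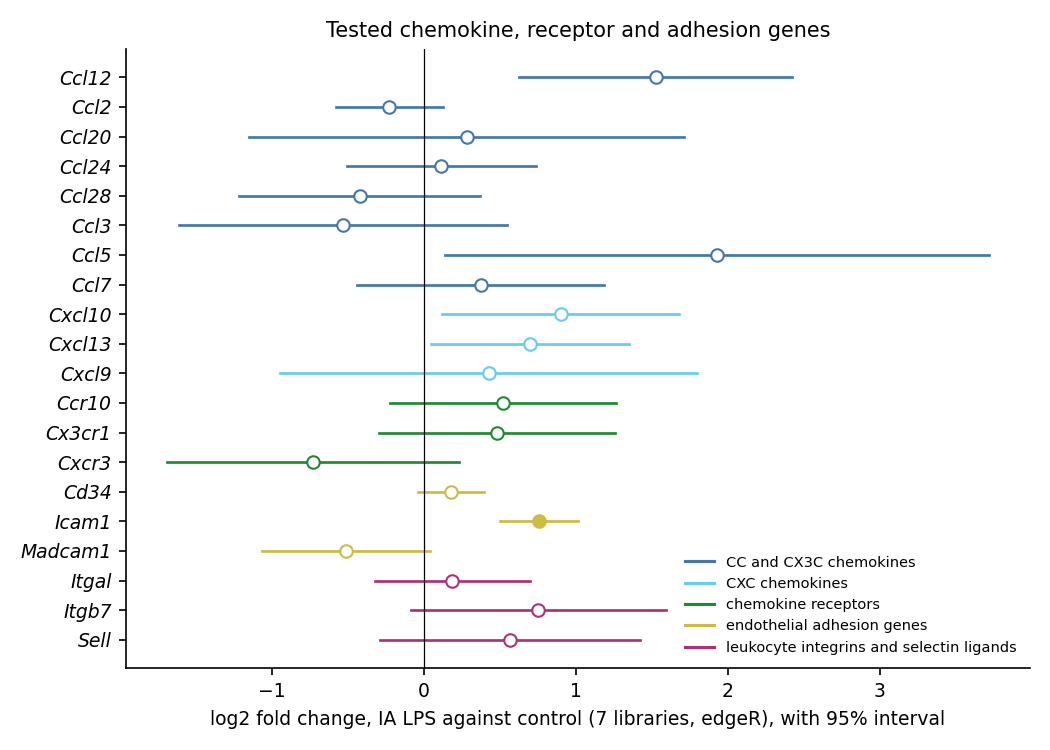
Log2 fold change of IA LPS against control over 7 libraries (x axis, edgeR) with 95% intervals for the 20 tested chemokine, chemokine receptor and adhesion genes (y axis), coloured by list. Icam1, the filled point at 0.76, was the only gene of the 20 called.

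Interferon-responsive genes were followed because Cxcl10 is among them. Of 30 genes 7 were tested, with a median log2 fold change of 0.43 over 7 libraries and 0.62 over 6, and Oasl2 was called induced in both. Oasl2, an oligoadenylate synthetase-like gene, was at 3.58, 3.95 and 4.25 CPM in controls and 7.47, 6.94, 5.46 and 8.54 CPM in IA LPS lungs. The groups did not overlap, and its log2 fold change was 0.85 over 7 libraries (SE 0.187, edgeR adjusted p = 0.0860) and 0.75 over 6 (edgeR adjusted p = 0.0464). Its call was lost without any 1 of controls 1, 2 and 3 and IA LPS 1 and 2. Ifit1, another interferon-induced gene, was at 0.140 and 0.145 CPM in IA LPS 1 and 2 and at 4.53 to 7.53 CPM in the other 5 libraries.

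Among 23 genes of the NF-kB and acute cytokine response 6 were tested over 7 libraries and Icam1 alone was called, with a median log2 fold change of 0.18 over 7 libraries and 0.25 over 6. Sod2, a mitochondrial superoxide dismutase, was at 28.1, 33.7 and 35.9 CPM in controls and 38.3, 40.7, 37.2 and 43.2 CPM in IA LPS lungs, without overlap (log2 fold change 0.29 over 7 libraries, edgeR adjusted p = 0.270, and 0.25 over 6). Tnfaip3, a target of NF-kB that feeds back on the pathway, had a log2 fold change of -0.22 over 7 libraries (edgeR adjusted p = 0.694) and -0.03 without IA LPS 4, where it was at 3.79 CPM against 7.01 to 8.31 CPM in IA LPS 1, 2 and 3. The NF-kB subunit Relb had log2 fold changes of -0.08 and -0.10 (edgeR adjusted p = 0.868 and 0.813). Il1b, too low to be tested, had 0, 1 and 0 counts in controls and 9, 6, 3 and 7 counts in IA LPS lungs. Of 17 LPS receptor genes Lbp and Tlr2 were tested, neither was called, and their medians were 0.10 and 0.11. Of 10 lymphotoxin pathway genes, a pathway that controls Cxcl13 in lymphoid tissue, Cxcl13 and Tnfsf13b were tested, and they differed in direction, so the medians of -0.04 over 7 libraries and 0.03 over 6 describe neither. Tnfsf13b, a survival factor of B cells, was at 0.576, 0.554 and 0.492 CPM in controls and 0.209, 0.363, 0.357 and 0.334 CPM in IA LPS lungs. All 4 IA LPS lungs were below every control, but it was not called (log2 fold change -0.77 over 7 libraries, edgeR adjusted p = 0.337, and -0.80 over 6, edgeR adjusted p = 0.313).

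Markers of leukocytes that respond to these ligands were set beside the members. The 8 tested markers of monocytes and macrophages, of 17 listed, summed to 267, 292 and 361 CPM in controls 1, 2 and 3 and 526, 489, 416 and 425 CPM in IA LPS 1, 2, 3 and 4. Lyz2 was the most abundant and none was at 0 in every library. C1qa, C1qb and C1qc, the chains of complement C1q made by macrophages, were called induced over 7 libraries, and Lyz2 and Cx3cr1 in addition over 6. The 8 tested neutrophil markers, of 13 listed, summed to 35.2, 36.7 and 56.4 CPM in controls and 78.9, 65.6, 61.4 and 53.7 CPM in IA LPS lungs, with Fcnb the most abundant. Mmp8, a neutrophil collagenase, was called induced over 7 libraries, and S100a9 and Fcnb in addition over 6. Mpo, the myeloperoxidase of neutrophil precursors, had overlapping groups and a log2 fold change of -0.35 over 7 libraries (edgeR adjusted p = 0.835) and -0.17 over 6 (edgeR adjusted p = 0.916). Both lists were thus higher on average in IA LPS lungs along with the chemokines and Icam1, and their part in these results was not tested. Of the tested markers, 7 of the macrophage and 8 of the neutrophil list were named from the list of genes higher in placenta. Of that list 66.7% were higher over 7 libraries, against 51.5% of all genes tested. Called induced were 5.11% of it over 7 libraries and 8.63% over 6, against 1.40% and 2.17% of all genes tested.

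Lymphocyte and tissue markers were few. The B cell marker Vpreb1 and the NK cell markers Nkg7 and Prf1 were tested and not called, with log2 fold changes of 0.53, 0.13 and 0.88 over 7 libraries and 0.51, 0.23 and 0.92 over 6. Of the tissue lists, 2 mesothelial markers were tested and not called, and of 3 epithelial markers Sftpd, a collectin of surfactant that binds LPS, was called induced in both comparisons. Sftpd was at 3.83, 3.47 and 6.99 CPM in controls and 34.7, 35.6, 17.9 and 52.9 CPM in IA LPS lungs. Sftpc was at 478, 588 and 667 CPM in controls and 729, 986, 829 and 1222 CPM in IA LPS lungs, without overlap. It was not called, at 0.70 over 7 libraries (edgeR adjusted p = 0.145) and 0.55 over 6, below the fold change threshold. The groups overlapped for Nkx2-1, with a log2 fold change of 0.08 in both comparisons. Neither of the 2 thymus markers tested was called. No marker of the dendritic cell, endothelium or mesenchyme lists had a paired identifier, so the share of endothelium behind the Icam1 level was not analysed here.

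For each member the 3 genes with the nearest profile over the 7 libraries were found among 977 named genes of at least 1 CPM, as the root mean square difference of centred log2 CPM. What these genes share with the member across these libraries follows from that choice and is given as description. Ccl12 was nearest to Alox5 (0.242), S100a9 (0.317) and S100a8 (0.322), an arachidonate lipoxygenase and both chains of calprotectin. Among controls all 3 were, like Ccl12, lowest in control 1 and highest in control 3, as S100a9 was with 0.865 and 3.41 CPM. Cxcl13 was nearest to Ca12 (0.122), Clec12a (0.128) and Dlec1 (0.156). Each of these was lowest among IA LPS lungs in IA LPS 4, as Ca12 was with 26.7 CPM against 48.1 to 58.6 CPM. Cxcl10 was nearest to Pou5f1 (0.178), Slc24a2 (0.180) and Ooep (0.225), whose highest levels were in IA LPS 2 and 4. Icam1 was nearest to Ak9 (0.0983), Gatm (0.106) and Mgst1 (0.109), and all 3 were called induced in both comparisons.

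The promoters of the 4 genes were read in the RefSeq table of GRCr8, where all 4 matched, and searched on both strands over the 250 bases before the gene start. The motifs were the NF-kB consensus (10 bases: GGG, a purine, 2 bases of any kind, 2 pyrimidines and CC), the interferon-stimulated response element (ISRE, GAAA on either side of 2 bases of any kind) and the gamma-activated site (GAS, TTCNNNGAA). Of 33465 promoters 6.33% held the NF-kB motif, 3.41% the ISRE and 7.67% the GAS. The promoters of Cxcl10 and Icam1 held matches and are shown, with the matched bases in capitals, because these genes stand for the interferon and NF-kB lists above. The Cxcl10 window, at chr14:15988816-15989065 on the plus strand, held an ISRE match 243 to 234 bases before the start and NF-kB matches at 187 to 178 and at 128 to 119, the last overlapping a match on the other strand at 127 to 118. The Icam1 window, at chr8:27829595-27829844 on the plus strand, held a GAS match 107 to 99 bases before the start and no exact match to the NF-kB consensus, which does not cover sites that depart from it by a base. The windows of Ccl12 and Cxcl13 held none of the 3 motifs, which says only that these exact letters are absent there.
Cxcl10: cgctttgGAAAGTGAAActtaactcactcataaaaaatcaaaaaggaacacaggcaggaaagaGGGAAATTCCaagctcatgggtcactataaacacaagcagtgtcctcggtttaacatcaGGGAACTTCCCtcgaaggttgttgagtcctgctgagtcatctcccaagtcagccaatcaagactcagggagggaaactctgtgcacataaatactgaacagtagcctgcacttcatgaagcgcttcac
Icam1: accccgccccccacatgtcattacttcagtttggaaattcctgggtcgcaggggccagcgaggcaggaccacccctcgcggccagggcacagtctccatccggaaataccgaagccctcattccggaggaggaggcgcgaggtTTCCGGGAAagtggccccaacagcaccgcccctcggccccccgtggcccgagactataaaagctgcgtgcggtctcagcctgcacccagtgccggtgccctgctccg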

How the data were processed

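Fetal rat lungs, 3 control and 4 IA LPS, were grouped and numbered from the sample labels. The authors assigned paired-end reads of polyA RNA to transcripts of rat build rno6.0 with kallisto, summed them to genes with tximport and deposited estimated counts without normalization. Software versions and the annotation release are not given in the sources used here. Here the estimated counts, of which 73.1% to 75.1% per library were whole numbers, were rounded. None of the libraries was a copy of another.

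The software was DESeq2 1.42.0, limma 3.58.1 and edgeR 4.0.16, run in R 4.3.3. Genes passing filterByExpr were normalized with TMM and compared by the quasi-likelihood test of edgeR in a model of treatment alone, with Benjamini-Hochberg adjustment across all genes tested. CPM values use TMM factors of the 7 libraries, with a prior count of 2 on the log2 scale. The F statistic and the log2 fold change gave the standard errors. Exact permutation tests compared mean log2 CPM.

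Identifiers were named through the study's supplementary sheets, nearly all listing genes that changed in placenta, which paired 2070 identifiers with symbols, 2050 of them in the table and 1312 tested. Named genes were the 4 members, list genes called over 7 or 6 libraries, other list genes by choice after their values were seen, and the 3 genes nearest each member. The lists covered chemokines, receptors, adhesion, integrins, interferon, NF-kB, LPS receptor and lymphotoxin pathways and markers of 12 cell types and tissues, and were not tested as lists. Members and lists were chosen with earlier results of these data known. Promoter sequences came from RefSeq (GRCr8), a later build than the authors used. Alternatives were each library left out, a replicate block, DESeq2 size factors, DESeq2, limma-voom with and without sample weights, other filters, unrounded counts and a stricter threshold.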

Additional observations from a re-analysis of the deposited data

Results flagged for a closer look

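Across the IA LPS libraries 87 groups of 4 were checked for a library far from the others: the 4 genes, the genes of the lists and the most alike genes that had any count there, and the PC1 score. Such a library was found in 12. The groups share the same libraries and CPM need not be normal, so whether 12 is an excess was not tested. Chance gives such a library in about 1 of 20 independent groups with normal spread. That rate does not apply to Cxcl2 and Il1a, where 1 count among zeros fixed the outcome. IA LPS 2 held 6 of the 12, all of them high: Rag1 at 27.8 CPM, Ptcra at 2.80, Cd2 at 3.05, Hemgn at 31.9, Mpo at 7.56 and Ccl19 at 0.327 CPM. IA LPS 1 held 3, also high: S100a9 at 9.01 CPM, Ccl28 at 0.943 and Cxcl2 at 0.0349 CPM, the last from 1 count. IA LPS 3 was low for Mgst1 at 40.8 CPM and high for Il1a at 0.0357 CPM, again from 1 count. Madcam1 was at 5.64 CPM in IA LPS 4 and at 3.39, 3.49 and 3.28 CPM in IA LPS 1, 2 and 3, while controls held 5.80, 4.51 and 6.57 CPM. None of the 4 genes of this report was among the 12, and neither was the PC1 score, on which IA LPS 4 was highest.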

How the results depend on the processing

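Of the 16 alternatives the stricter threshold reuses the fit over 7 libraries, so direction could not differ there. Each of the 4 genes was higher in IA LPS lungs under all 16 alternatives. Ccl12 was called in 4 of them, Cxcl13 in 2, Cxcl10 in 0 (unadjusted p under 0.05 in 11 of 16 and from 0.0616 to 0.0830 in the other 5) and Icam1 in 12. Adjusted p over the alternatives ranged from 0.0102 to 0.356 for Ccl12, 0.0472 to 0.647 for Cxcl13, 0.212 to 0.522 for Cxcl10 and 8.74e-07 to 0.204 for Icam1. With each library left out in turn, log2 fold changes ranged from 1.21 to 2.09 for Ccl12, 0.48 to 0.86 for Cxcl13, 0.64 to 1.06 for Cxcl10 and 0.72 to 0.82 for Icam1. Over the same left-out libraries the count of genes called induced ranged from 1 to 339 and that of suppressed genes from 0 to 176, against 220 and 80 over 7 libraries, and called genes of the pathway lists from 0 to 6, against 2. Ccl12 passed the threshold at 1.53 with DESeq2 and 1.76 with limma-voom and sample weights, and Cxcl13 at 0.89 with the weights. Called genes numbered 424 induced and 206 suppressed with DESeq2, 463 and 252 with the weights, and 87 and 37 at an adjusted p under 0.05. List genes called were 7 with the weights and 1 each with limma-voom, without a filter and at the stricter threshold. Of the other named genes Oasl2, Cx3cr1 and Madcam1 were run under the alternatives. None of these 3 reversed, Oasl2 lost its call in 8 of 16, and Cx3cr1 and Madcam1 gained one in 3 and 2. The cause of these differences was not tested. The lowest counts in a library were 9 for Ccl12 and 24 for Cxcl10, which sets the width of their counting intervals.

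The labels do not say that replicate numbers pair these samples. Deviations of same-numbered libraries from their group means correlated at 0.145, -0.0558 and -0.193 across genes. Those of differently numbered libraries correlated at -0.166 to 0.279. So few correlations cannot exclude a shared litter or batch. No control shares the number of IA LPS 4, so a replicate block also takes that library out of the comparison. With the replicate block, Ccl12 was called at 1.63, 286 genes were induced and 152 suppressed, and 4 list genes were called.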
